A study of Mus musculus with 12 samples.

Results

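Cycling enterocyte progenitors are the cells of the absorptive lineage that had begun to express the fatty acid binding gene Fabp1 and still carried the transcripts of dividing cells. They were picked out of hashed single-cell RNA-seq libraries of mouse small intestinal organoids by their own counts. A cell was a member if, per 10000 gene UMIs, it had at least 5 and under 50 UMIs of Fabp1 and at least 3 UMIs of Mki67 and Top2a together, with goblet (Fcgbp, Tff3, Muc2, Agr2), Paneth (Defa17, Defa24, Defa30, Lyz1) and enteroendocrine (Chga, Chgb) transcripts under gates of 10, 50 and 10. The members were thus chosen by their measured levels of these genes. Cells entered with 10000 to 90000 UMIs, between 3000 and 10000 detected genes and a mitochondrial share of up to 8.5%, and of the 11911 hashtag singlets left 687 (5.77%) were members. They are called progenitors here. Among them Fabp1 ran from 5.00 to 49.9 UMIs per 10000 with a median of 11.2, and Mki67 with Top2a from 3.03 to 28.9 with a median of 8.04. These values chose the cells and carry no test. The nearest cells outside the gates had 4.99 and 50.5 for Fabp1 and 2.99 for the cycling pair. The lower Fabp1 gate fell in a dense range, with 95 members between 5 and 6 and 141 otherwise eligible cells between 4 and 5.

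All organoids were wild type and grown from the small intestine of BALB/c mice in a medium with EGF, Noggin and R-spondin, and all were cultured for 4 days. The 6 groups were organoids alone (control), organoids with 100000 CD25high FoxP3-GFP+ T cells per well (Treg), the same co-culture with an antibody to IFNγ (Treg + aIFNg), to the IL-10 receptor (Treg + aIL10R) or with both antibodies, and organoids without T cells given 0.25 ng/ml recombinant IFNγ with 10 ng/ml recombinant IL-10 (IFNg + IL10). The T cells were allogeneic, were kept active with IL-2 and CD3/CD28 beads, and lay below the organoids without touching them. They were removed before live EpCAM+ cells were sorted, and the antibodies were added at the start. Each group was made in 3 experimental replicates, and the 6 groups of a replicate were hashed and pooled, so that every library held every group. How many mice a culture came from is not stated in the sources used here, and p-values therefore measure the spread between these replicates.

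Enterocytes arise from Lgr5+ stem cells at the crypt base. Daughter cells leave the niche, divide several times as transit-amplifying cells while Notch signalling holds them in the absorptive lineage, and then stop cycling as they switch on nutrient transporters and brush border enzymes. IFNγ acts through a receptor with JAK kinases, whose signal induces IRF1, the class II transactivator CIITA, the immunoproteasome and antigen presentation in epithelial cells.

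The 5 libraries held 7756, 7116, 5387, 7995 and 7731 barcodes. Replicate 1 came from the first and second library, replicate 2 from the third and the fourth, and replicate 3 from the fifth. The depth per barcode stood apart, with median UMIs of 23345 and 27317 in the libraries of replicate 2 and of 3486 to 4427 in the other libraries. After the gates the group medians of the members lay between 49500 and 54440 UMIs and between 6581 and 6749 genes per cell. The replicates gave 250, 282 and 155 progenitors. Control gave 45, 62 and 24 cells, Treg 43, 60 and 29, Treg + aIFNg 50, 54 and 35, Treg + aIL10R 51, 41 and 30, and the co-culture with both antibodies 51, 41 and 31. IFNg + IL10 gave 10, 24 and 6 cells, so its pooled counts were the shallowest, with 518354, 1197903 and 280291 UMIs against 2477016, 3158391 and 1412701 in control.

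The hashtag calls were not equally clean. The called hashtag took a median of 60.6% of a progenitor's hashtag UMIs in control and 50.0% in the co-culture with both antibodies, but 94.3% in IFNg + IL10. Of the barcodes called hashtag doublets, 103 of 1355 (7.60%) met the same gene rule, against 5.77% of singlets. Those doublets carried Olfm4, a stem cell gene, at 504 CPM (pooled UMIs of each gene scaled to a common total of counts), whereas the progenitors carried 47.8 CPM and cycling crypt cells, defined as cells that met the cycling and secretory gates with Fabp1 under 5, carried 1155 CPM. Rbp2, a retinoid binding gene of mature enterocytes, was at 1447 CPM in the doublets and 1414 CPM in the progenitors. Doublets within a hashtag were not removed, and their part in the results was not tested. Of the 35851 distinct barcodes 134 occurred in more than 1 library, and 0 of these repeats involved a progenitor.

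The transcriptome of the control progenitors matched the label. Because the classes were cut from the same counts, differences between them are descriptions and have no test. Rbp2 was at 1277 CPM in the control progenitors (mean of 3 replicates), between 182 CPM in cycling crypt cells and 6239 CPM in mature absorptive cells, which had 50 or more UMIs of Fabp1 per 10000, cycling or not. Sis, the sucrase-isomaltase of the brush border, was ordered the same way at 83.6, 347 and 1755 CPM, and so was the summed list of 40 maturation genes at 2363, 5086 and 18580 CPM. The stem cell genes ran in the other order. Olfm4 was at 16.6, 96.6 and 34.0 CPM in the 3 control sums of progenitors, whereas cycling crypt cells had 1114, 1313 and 1301 CPM. Lgr5, the R-spondin receptor of crypt base stem cells, was at 4.85, 36.7 and 13.5 CPM against a mean of 68.0 CPM. Replicate 2 was the highest for both genes, and no progenitor sum reached the crypt level of Olfm4.

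Proliferation genes stood at the level of cycling crypt cells, which met the same gate on Mki67 and Top2a. That gate also divides both classes from non-cycling cells, so these values are descriptions. Ube2c, a mitotic ubiquitin-conjugating enzyme, was at 541 CPM in control progenitors and 536 CPM in cycling crypt cells. It was at 137 CPM in absorptive cells of the same Fabp1 window that did not cycle. The summed G2/M list was 7572, 7659 and 1891 CPM in these classes, and the summed S phase list 2006, 2082 and 1133 CPM. Dmbt1, a secreted scavenger receptor of the mucosa, and Rbp7, a retinol binding protein, are given as markers of these cells. Dmbt1 was at 1067, 641 and 748 CPM in the 3 control sums, and its mean of 818.5 CPM was above those of cycling crypt (428), non-cycling absorptive (633) and mature cells (457). Rbp7 had 86.8, 70.6 and 100.5 CPM in progenitors and 22.2, 26.0 and 25.1 CPM in crypt cells. It did not set progenitors apart from later absorptive cells, in which it averaged 82.1 and 73.2 CPM.

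**Figure D1:**
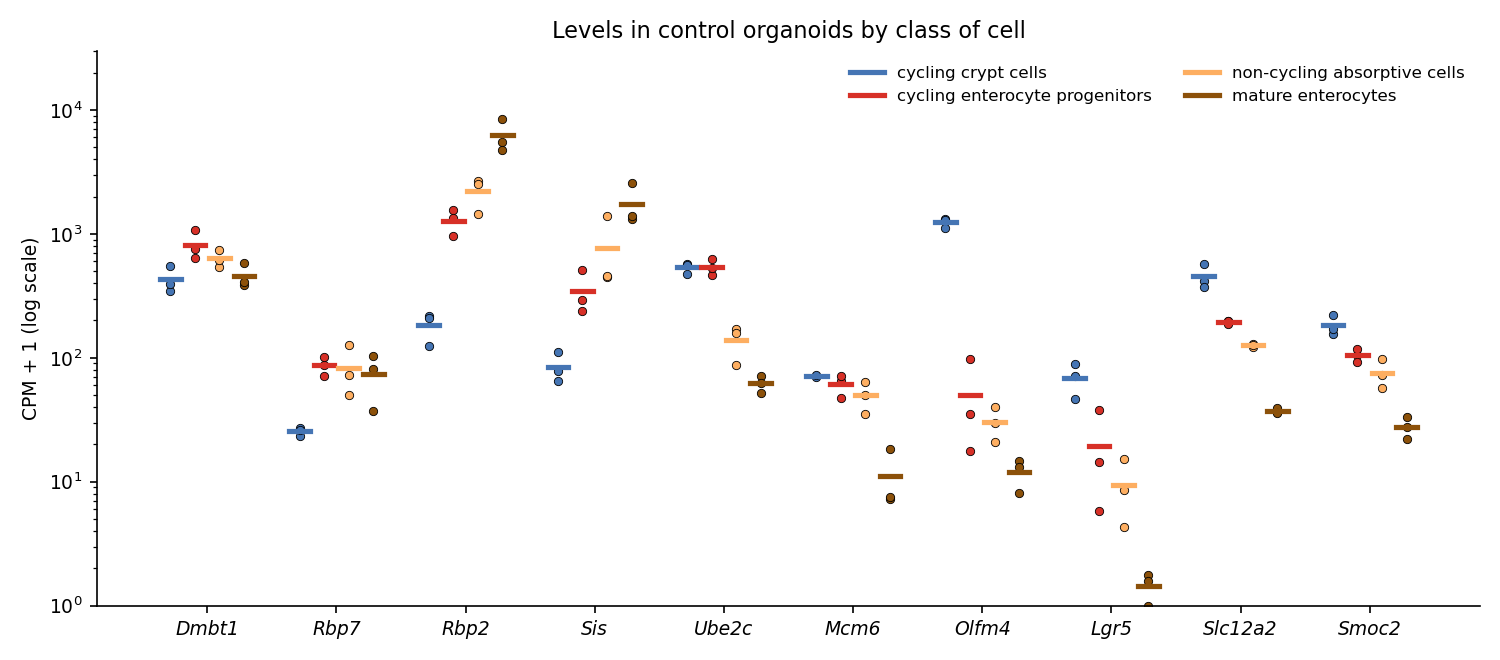
Level of 10 genes in control cells by class, from cycling crypt through cycling enterocyte progenitors and non-cycling absorptive cells to mature cells, in CPM + 1 on a log axis; points are the 3 replicates and bars their mean. Rbp2 lies at 182 CPM in the first class and 6239 CPM in the last, Olfm4 at 1243 and 10.95 CPM, and Ube2c at 536 and 541 CPM in the cycling classes.

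Markers of other cells were low. The 13 goblet genes summed to 128, 169 and 181 CPM in control progenitors and to 112, 117 and 85.6 CPM under IFNg + IL10, with 12 of 13 detected and Spink4 as the most abundant at 2721 of 4973 UMIs over all 687 cells. The 11 Paneth genes summed to 56.1, 93.4 and 90.6 CPM in control and 69.5, 79.3 and 57.1 CPM under the cytokines, led by Defa24. The gates bound only the genes they hold, among them Defa24, and Spink4 is not in the goblet gate. Of 12 tuft genes 7 had a UMI, and Dclk1 and Trpm5 were at 0, while the enteroendocrine list had 239 UMIs in all. Of 20 T cell genes 8 had a UMI and together they had 104, of which Ctla4 gave 53. Cd3e, Cd3g, Trbc1, Trbc2 and Ptprc were at 0 in all progenitors. T cell RNA in the co-culture sums was therefore near 0, with 2.496, 4.04 and 0.608 CPM for the whole list in Treg and 1.21, 2.22 and 5.66 CPM in control.

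Within the Fabp1 window the control progenitors formed a gradient from crypt to enterocyte, again as a description, since Fabp1 set the bins. The bins held 5 to 10, 10 to 20 and 20 to 50 UMIs of Fabp1 per 10000, and the sum of the stem cell genes was lower in each higher bin. The summed stem list was at 1254 ± 134, 842 ± 62.9 and 598 ± 175 CPM (SD, n = 3 replicates). Slc12a2, a chloride cotransporter of crypt cells, was at 285 ± 31.8, 133 ± 33.5 and 79.9 ± 44.4 CPM. Axin2, a direct Wnt target, was at 47.4 ± 14.7, 25.7 ± 16.5 and 7.59 ± 3.43 CPM. Lgr5 was at 27.4 ± 24.8, 15.6 ± 13.6 and 0.637 ± 1.10 CPM, where the SD of the low bin is nearly as large as its mean. Absorptive genes had the opposite order over the same bins. Rbp2 was at 823 ± 248, 1259 ± 344 and 2391 ± 246 CPM, and the summed maturation list at 4072 ± 743, 5373 ± 936 and 7085 ± 353 CPM. The gate on Mki67 and Top2a kept cycling cells in every bin. Within it the G2/M list was level at 7566 ± 675, 7546 ± 182 and 7495 ± 1667 CPM. The S phase list was at 1819 ± 216, 2138 ± 357 and 2171 ± 1021 CPM. The upper bin held only 11, 13 and 4 control cells.

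**Figure D2:**
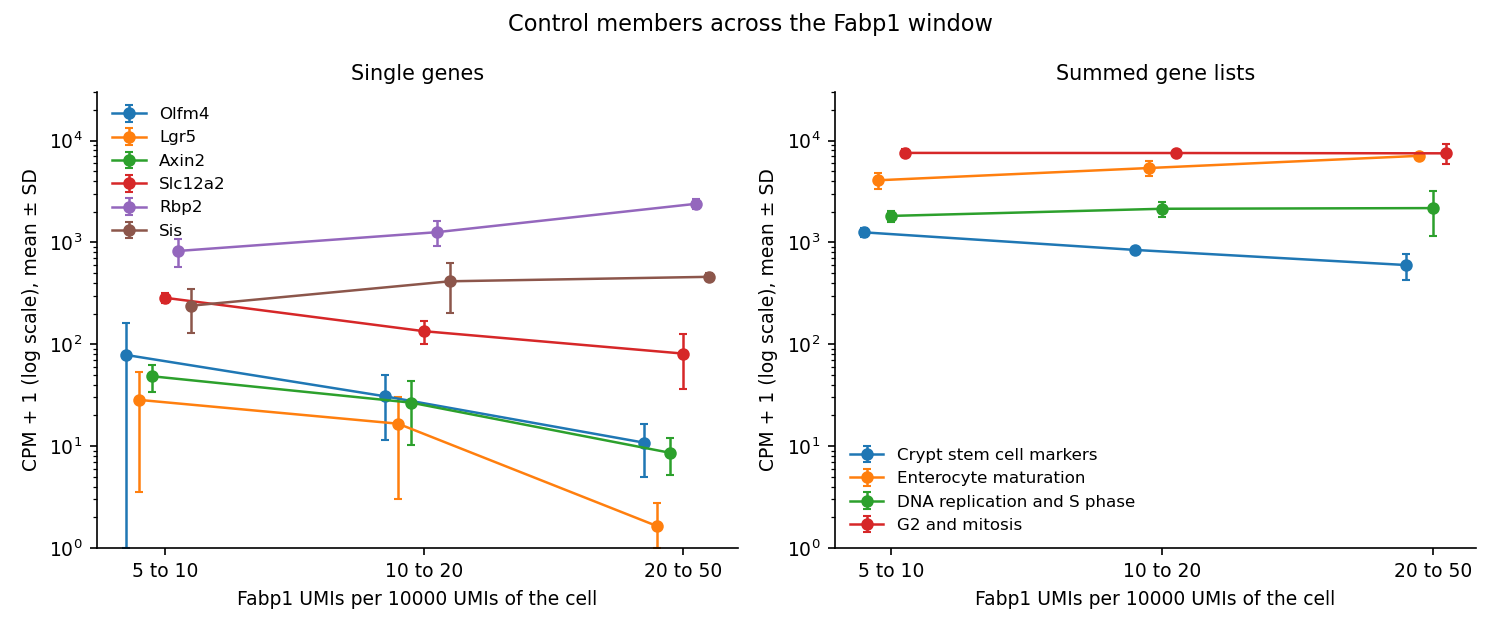
Levels in control progenitors (CPM, log axis) in 3 bins of Fabp1 UMIs per 10000, as mean ± SD of 3 replicates, with SD bars ending at the lower axis limit of 1. From the lowest to the highest bin the stem list has 1254 and 598 CPM, the maturation list 4072 and 7085 CPM and the G2/M list 7566 and 7495 CPM.

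The first question is what share of the sorted cells the progenitors made up in each group. They made up 7.55, 7.44 and 6.96% of the control cells in replicates 1 to 3 (7.32% ± 0.316, SD, n = 3). Under IFNg + IL10 they made up 1.76, 2.65 and 1.80% (2.07% ± 0.501, n = 3), of 569, 907 and 333 cells. All 3 values lay below all control values, with a difference of -5.25 percentage points (SE 0.342). An exact two-sided permutation test over 3 against 3 replicates gave p = 0.1, the smallest that this unpaired test allows (adjusted 0.25 over 5 comparisons), so it could not reach the threshold of 0.05. Within replicates the differences were -5.79, -4.80 and -5.16 points, and an exact paired permutation over these 3 pairs gave p = 0.25, again the smallest it allows. The difference shrank to -2.30 points (exact permutation p = 0.3) among cells with at most 50000 UMIs, where 1 of 3 cytokine values lay below all controls.

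Treg co-culture gave 6.10, 6.17 and 6.91% progenitors (6.39% ± 0.445, n = 3). All 3 values lay below the lowest control value, by a small margin in replicate 3, with a difference of -0.924 points (SE 0.315, exact permutation p = 0.1, adjusted 0.25). With at most 50000 UMIs the difference was -0.328 points and 0 Treg values lay below all controls. Thinning left 1 value below all controls. The difference turned to 2.23 points where the called hashtag took at least 80% of hashtag UMIs. The antibody groups spread more widely and overlapped control. Treg + aIFNg had 6.79, 5.41 and 9.09%, Treg + aIL10R 6.55, 4.30 and 8.38%, and the co-culture with both antibodies 6.84, 4.75 and 7.56%. Their differences from control were -0.220 (SE 1.09), -0.909 (SE 1.195) and -0.936 points (SE 0.864), with exact permutation p of 0.8, 0.6 and 0.4.

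The lower share under IFNg + IL10 was also seen against other denominators. Among cells in the Fabp1 window the cycling share was 49.5, 45.3 and 39.3% in control, and under the cytokines 10 of 79, 24 of 92 and 6 of 30 cells cycled, on average 19.6%. Among cycling cells with Fabp1 under 50 and outside the secretory gates the share in the window was 13.7, 14.3 and 17.1% in control and 5.49, 5.70 and 4.69% under the cytokines. The groups did not overlap in either measure. Cells past the secretory gates made up 6.71, 5.76 and 8.70% of control and 17.8, 14.3 and 15.9% of cytokine cells, and with these left out the progenitor share was 8.09, 7.90 and 7.62% against 2.14, 3.09 and 2.14%. All cycling cells together were 58.2, 54.6 and 44.1% of control and 35.7, 51.8 and 42.9% of cytokine cells, which overlap. Mature absorptive cells overlapped too, at 10.2, 8.88 and 13.0% against 17.8, 9.48 and 11.1%. Within the window the remaining cytokine progenitors were spread like control, with 39.7, 39.7 and 20.6% in the 3 Fabp1 bins against 46.4, 32.9 and 20.7%.

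**Figure D3:**
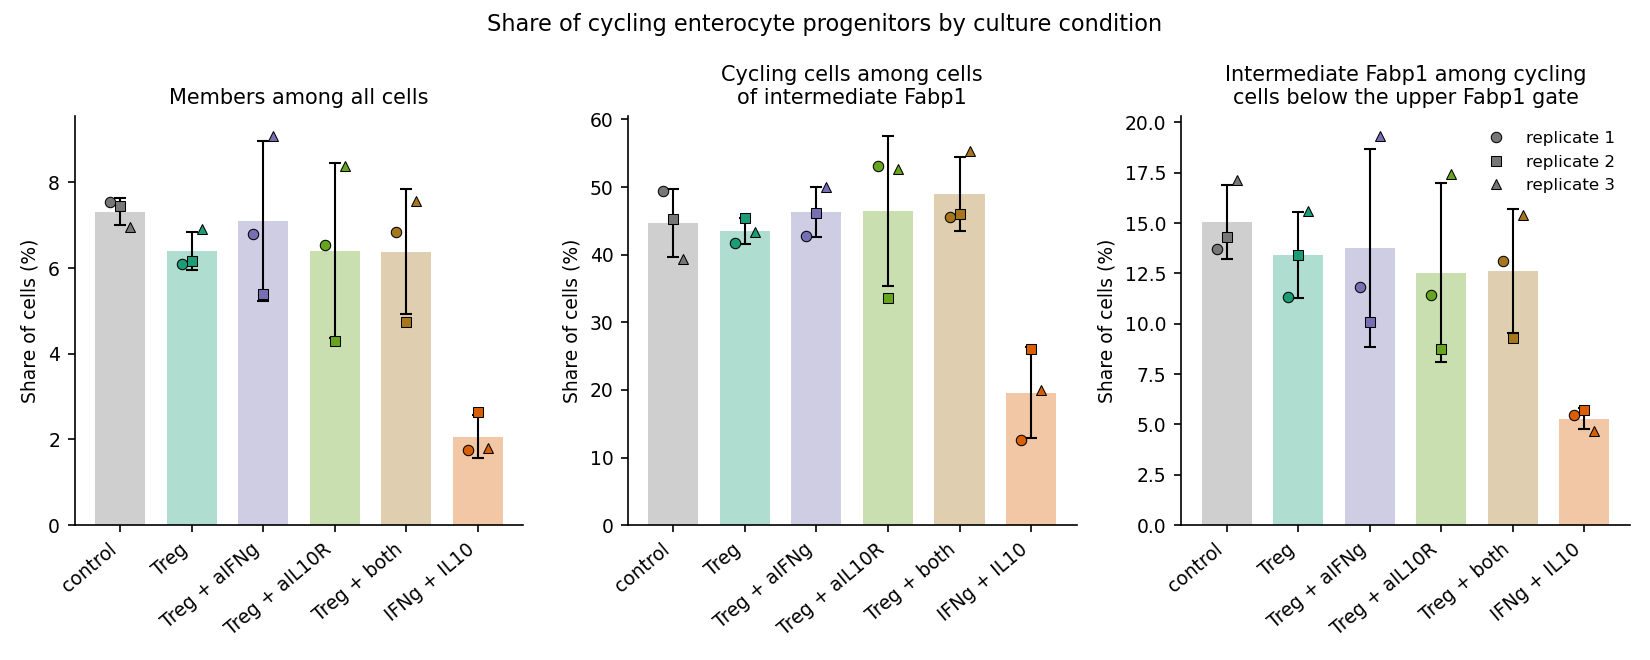
Progenitors as a percent of all cells passing the filters, of cells in the Fabp1 window and of cycling cells under the upper Fabp1 gate, in the 6 groups; bars are means with SD and points the 3 replicates. In each panel the 3 IFNg + IL10 points lie below all control points, for instance 1.76 to 2.65% against 6.96 to 7.55% of all cells.

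Gene expression was compared on the UMIs of a group's progenitors summed per replicate, with the replicate as a block. Between IFNg + IL10 and control 663 of 9970 genes (6.65%) passed a Benjamini-Hochberg adjusted p of 0.05 in edgeR's quasi-likelihood test, 424 higher and 239 lower. The antigen presentation and interferon programs rose together, and several absorptive genes rose. The stem list had 3 lower genes and no higher one, but 2 in each direction without replicate 2. Of the transducers of the signal, Ifngr1 and Ifngr2, the chains of the IFNγ receptor, did not pass (log2 fold change 0.17, SE 0.15, adjusted p = 0.593, and -0.25, adjusted p = 0.463). Il10rb, the shared chain of the IL-10 receptor, was present at 30.3, 22.5 and 31.2 CPM in control, while Il10ra, the chain that binds IL-10, was at 0 in every sum of progenitors. Of 15 tested genes of cytokine receptors and STAT signalling 2 passed, both higher. Socs1, the feedback inhibitor of JAK signalling, had 0, 1.27 and 0.708 CPM in control and 48.2, 7.51 and 35.7 CPM with the cytokines (adjusted p = 3.26e-05). Pim1, a kinase induced by STAT factors, rose by 1.34 (SE 0.27, adjusted p = 0.00128). Socs3, the feedback gene of STAT3, was at 4.85, 1.90 and 0.708 CPM and 3.86, 4.17 and 3.57 CPM (log2 fold change 0.51, SE 0.75, adjusted p = 0.788).

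Of 17 tested IFNγ response genes 13 were higher and 0 lower, with a median log2 fold change of 3.03, where the median over all genes was -0.01. The tested genes of a list are those past the filter on low counts, here 17 of 40, and a gene near 0 in control passed it through the cytokine group alone, so list counts are descriptions. Irf1, the primary IFNγ response factor, was at 6.46, 5.70 and 5.66 CPM in control and at 203, 111 and 221 CPM with the cytokines. The groups were far apart in every replicate (log2 fold change 4.75, SE 0.38, adjusted p = 2.73e-10). Irf8 was at 53.7, 41.8 and 31.9 CPM in control and 538, 243 and 310.4 CPM with cytokines (3.03, SE 0.24). The immunity-related GTPases, which attack the vacuoles of intracellular pathogens, were barely present in control. Igtp had 1.61, 0.950 and 1.42 CPM there and 274, 76.0 and 121 CPM with cytokines. Irgm2 had 0 UMIs in all control sums and 65 with cytokines, at least 76.5-fold higher when control is set to a floor of 3 counts over the group. Replicate 2 responded least in each of these genes, yet every cytokine value exceeded every control value. Apol10a, of the apolipoprotein L family, moved from 3.23, 1.90 and 0.708 to 248.9, 77.6 and 121 CPM (6.04, SE 0.45, adjusted p = 6.87e-11).

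Of 20 tested class I presentation genes 17 were higher and 0 lower (median 1.59). The immunoproteasome subunits, which replace the constitutive catalytic sites, rose from low levels. Psmb8 was at 10.9, 11.7 and 24.1 CPM in control and 525, 293 and 624 CPM with cytokines (5.00, SE 0.32, adjusted p = 5.35e-12). Psmb9 went from 32.3, 32.6 and 60.9 to 409, 271 and 564 CPM (3.30, SE 0.22), and Psmb10 from 54.1, 50.0 and 48.1 to 239, 146 and 285 CPM (1.99, SE 0.21). The proteasome activators Psme1 and Psme2 rose by 1.72 (SE 0.14) and 1.46 (SE 0.15). Genes with a high starting level changed less. B2m, the light chain of class I molecules, was at 207.5, 187 and 194 CPM in control and 664, 384 and 574 CPM with cytokines (1.42, SE 0.14, adjusted p = 2.21e-08). H2-K1 and H2-D1, the classical heavy chains, rose by 1.24 and 1.36. The peptide transporter Tap1 rose by 4.10 and its partner Tapbp, tapasin, by 1.72. Class I heavy chain genes are close copies of each other, so the split of reads among them is uncertain.

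Class II genes went from near absence to high levels, with 9 of 11 tested genes higher and 0 lower (median 6.94, or 6.34 with genes at 0 in control set at their bound). Cd74, the invariant chain, was at 0.807, 5.38 and 4.96 CPM in control and 972, 748 and 1374 CPM with cytokines (8.47, SE 0.61, adjusted p = 3.7e-11). H2-Aa had 3 UMIs in the control sums and 495 with cytokines, a 583-fold higher level (199 to 2824, from the exact Poisson interval of the control count, which covers counting error only). H2-Eb1 was 426-fold (146 to 2066) and Ciita, the class II transactivator, 93.6-fold (25.9 to 772) higher. Cells with at least 1 Cd74 UMI, after thinning every cell to 10000 UMIs, were 0, 4.84 and 4.17% of control progenitors (16.5% on average without thinning) and 90.0, 91.7 and 100% of cytokine progenitors. The mean of 93.9% in cytokine progenitors was the same without thinning, since 1 of 10 cells in replicate 1 and 2 of 24 in replicate 2 had no Cd74 UMI at full depth. In cycling crypt cells the thinned shares averaged 3.59% in control and 99.9% with cytokines. Nearly all progenitors of the cytokine group therefore carried Cd74 transcripts.

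Of 20 tested genes of cell death 7 were higher and 1 lower. Fas, a death receptor, went from 3.63, 2.53 and 5.66 CPM in control to values between 17.8 and 48.2 CPM with cytokines (2.92, SE 0.49, adjusted p = 0.000144), with no overlap. Casp4, the inflammatory caspase that senses bacterial lipopolysaccharide, fell from 21.0, 6.97 and 12.03 CPM to 5.79, 0 and 0 CPM (91 against 3 UMIs, 8.59-fold higher in control, counting interval 2.94 to 41.7, adjusted p = 0.00168). The number of higher cell death genes was 3 without replicate 1 and 4 without replicate 3, and with equal numbers of members or at most 50000 UMIs it was 2, with 0 lower.

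Areg, the EGF family ligand amphiregulin, was at 28.3, 40.2 and 10.6 CPM in control and 214, 176 and 228 CPM with cytokines (2.79, SE 0.30, adjusted p = 8.81e-08). All 3 cytokine values were above the highest control value.

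Of 36 tested maturation genes 8 were higher and 3 lower (median 0.52). Sis was at 513, 238 and 289.5 CPM in control progenitors and 1420.0, 518 and 942 CPM with cytokines (1.44, SE 0.19, adjusted p = 6.04e-06). The highest control value, of replicate 1, nearly met the lowest cytokine value, of replicate 2, while within each replicate the cytokine value was the higher. Mttp, which loads lipid onto apolipoprotein B, rose from 212, 144 and 162 to 490.0, 279 and 317.5 CPM (1.05, SE 0.12, adjusted p = 5.97e-07). The glucose transporter Slc5a1 rose by 1.07 and villin, Vil1, which bundles the actin of microvilli, by 0.81 (SE 0.12). Krt20, a keratin of the villus tip, had 2.02, 4.12 and 2.12 CPM in control and 59.8, 15.9 and 42.8 CPM with cytokines (3.48, SE 0.60, adjusted p = 0.000213), and without replicate 1 it was at 2.61 with an adjusted p of 0.0575. Slc6a19, the neutral amino acid transporter, fell from 39.97, 23.4 and 18.4 to 1.93, 10.9 and 3.57 CPM (-1.86, SE 0.34), but without replicate 1 it was at -1.30 with an adjusted p of 0.0738. The counts of the maturation list varied, with 4 higher and 0 lower genes without replicate 1, 15 and 3 without replicate 2, and a median of 0.08 with 2 in each direction among cells with at most 50000 UMIs, a limit that also left fewer cells.

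The early absorptive genes did not move as a group, with 8 higher and 5 lower of 25 tested (median 0.01), or 4 and 1 without replicate 1, and the marker genes went apart. Rbp7 rose from 86.8, 70.6 and 100.5 to 253, 124 and 253 CPM (1.19, SE 0.21, adjusted p = 0.000293), with every cytokine value above every control value. Lypd8, a secreted protein that keeps flagellated bacteria off the epithelium, rose by 0.79 (SE 0.10, adjusted p = 1.22e-06). Dmbt1 fell from 1067, 641 and 748 to 486, 570.2 and 310.4 CPM (-0.73, SE 0.14, adjusted p = 0.000635), again without overlap, and stood at -0.55 with an adjusted p of 0.0795 without replicate 1. Of 25 tested transcription factors of the lineages 5 were higher and 1 lower, Foxa2, with 51 UMIs in the control sums and 1 with cytokines. The counts were 2 and 0 without replicate 1, 3 and 0 without replicate 3, and 0 and 0 with at most 50000 UMIs. Hnf4g, a nuclear receptor of enterocyte identity, rose by 0.64 (SE 0.11), and Tcf7l2, the Wnt effector, by 0.96 (SE 0.13) from 174, 137 and 110.4 to 284, 346 and 160.5 CPM. Outside this list, Sox4, a SOX family transcription factor, fell from 124, 124 and 112 to 23.2, 40.1 and 39.2 CPM (-1.78, SE 0.22, adjusted p = 1.34e-06).

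Of 19 tested stem cell genes 0 were higher and 3 lower with the cytokines (median -0.26). The counts were 0 and 4 without replicate 1, 2 and 2 without replicate 2, and 0 and 1 without replicate 3. With equal numbers of members or narrower gates 0 passed in either direction. Slc12a2 fell from 195, 198 and 186 to 112, 113 and 78.5 CPM (-0.87, SE 0.17, adjusted p = 0.00133), with no overlap. Smoc2 and Sox9 were lower by a similar amount, at -0.86 (adjusted p = 0.0395) and -0.84 (adjusted p = 0.0445), and each lost its call in 2 of the 3 runs that left out a replicate, the lowest changes being -0.54 and -0.60. The stem markers most often used did not pass. Olfm4 was at 16.6, 96.6 and 34.0 CPM in control and 260.4, 91.0 and 57.1 CPM with cytokines (1.46, SE 0.63, adjusted p = 0.192). Lgr5 was at 4.85, 36.7 and 13.5 CPM and 42.4, 3.34 and 32.1 CPM (-0.03, SE 0.75, adjusted p = 0.996). The groups overlapped in both genes, and replicate 2 decided each value, since without it Olfm4 stood at 3.04 (adjusted p = 0.00134) and Lgr5 at 2.30 (adjusted p = 0.00316).

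Cell cycle genes are read beside the 6.65% of all genes that were called. Of 35 S phase genes 0 were higher and 1 (Tyms) lower, of 40 G2/M genes 0 and 3 (Hmgb2, Aurkb and Cenpf), and of 18 G1 genes 1 and 2, with medians of -0.10, -0.15 and 0.01. The S phase list lay below that share, the G2/M list near it and the G1 list above it. Hmgb2, a chromatin protein of dividing cells, went from 2506, 2304 and 2653 to 1993, 1870 and 1862 CPM (-0.37, SE 0.07, adjusted p = 0.000909), and its adjusted p was 0.0637 without replicate 3. Tyms, Aurkb and Cenpf, at -0.42, -0.52 and -0.51, each lost the call in at least 2 of the 3 runs that left out a replicate, with changes of -0.51 to -0.32, -0.60 to -0.48 and -0.74 to -0.31 over those runs. The D-type cyclins, which link growth signals to entry into S phase, moved apart. Ccnd1 rose from 106, 103 and 73.6 to 195, 169.5 and 196 CPM (0.91, SE 0.13, adjusted p = 2.03e-05). Ccnd2 fell from 794, 686 and 501 to 397, 446 and 446 CPM (-0.64, SE 0.12, adjusted p = 0.000909), with an adjusted p of 0.0560 without replicate 1. Since the gate on Mki67 and Top2a kept cycling cells in every group, these values describe the cells that still cycled.

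Growth and metabolism lists were mixed. Of 39 tested mTORC1 genes 11 were higher and 2 lower (median 0.29), but 4 were higher and 0 lower without replicate 1, 3 and 0 without replicate 3, and 0 passed in either direction without the replicate block. The glycolytic genes Gapdh and Pkm rose by 0.78 (SE 0.13, adjusted p = 0.000108) and 0.63 (SE 0.11, adjusted p = 0.00022), Gapdh from 1146, 1863 and 1423 to 2209, 2340 and 2854 CPM. Of 40 Myc targets 2 were higher and 2 lower (0 and 0 without replicate 1), and Myc itself did not pass (-0.10, SE 0.21, adjusted p = 0.870). Its sign turned in several alternatives. Ppargc1a, the coactivator of mitochondrial biogenesis, rose from 3.63, 2.53 and 1.42 to 83.0, 25.04 and 39.2 CPM (4.05, SE 0.54, adjusted p = 5.27e-06), as 1 of 5 higher and 2 lower genes among 18 of fatty acid oxidation, a list with 1 higher gene without replicate 1 or 3. Of 27 cholesterol genes 1 was higher and 2 lower (1 and 0 without replicate 1 or 3), and of 24 brush border genes 2 (Vil1 and Cdh17) and 0 (1 and 0 without replicate 3).

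Defence genes were mixed as well, with 2 higher (Lypd8 and Nlrp6) and 3 lower (Reg1, Dmbt1 and Pigr) of 10 tested, or 1 and 0 without replicate 1. Of 16 immediate early genes 0 were higher and 2 lower (1, 4 and 1 lower without replicate 1, 2 and 3), among them Fos, a subunit of AP-1, from 255, 230.2 and 297 to 81.0, 139 and 125 CPM (-1.06, SE 0.21, adjusted p = 0.000916). Other genes with large decreases were Ifi27l2b, of a family of interferon-inducible genes, from 267, 211 and 239 to 32.8, 52.6 and 32.1 CPM (-2.38, SE 0.21, adjusted p = 2.89e-09), and the metal-binding Mt1 from 7912, 7655 and 7020 to 2703, 3461 and 2836 CPM (-1.32, SE 0.10, adjusted p = 2.2e-10). Cfhr2, of the complement factor H family, fell by 2.89 on the log2 scale (SE 0.42, adjusted p = 2.41e-05). The goblet gene Spink4 fell by 0.79 (adjusted p = 0.00596), which lost its call without replicate 2 (-0.84, adjusted p = 0.0773). It was 1 of 3 goblet genes and 1 Paneth gene abundant enough to test, and 0 of the others passed.

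**Figure D4:**
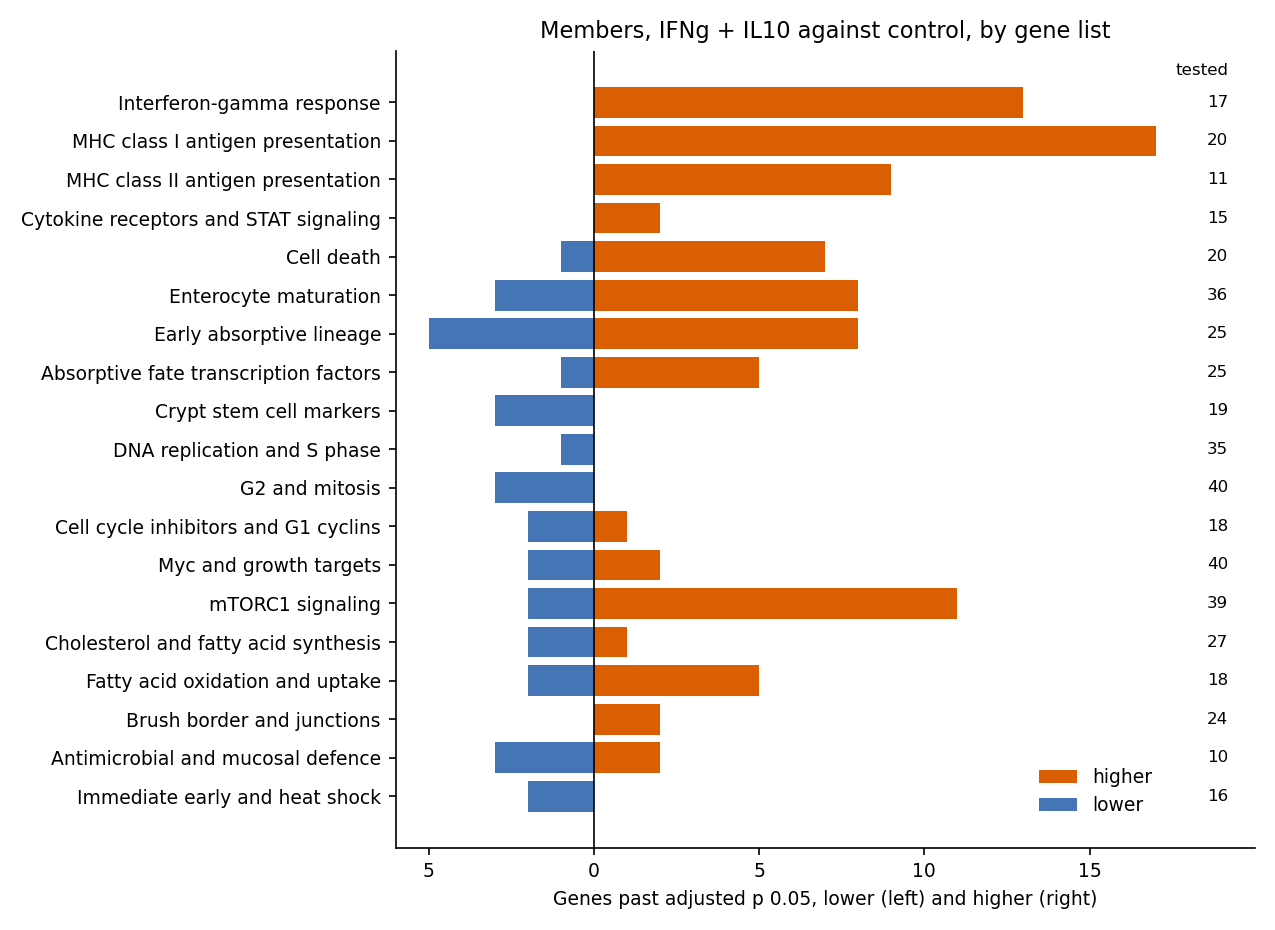
Number of genes of each list that were higher (to the right) or lower (to the left) in progenitors with IFNg + IL10 than in control at an adjusted p of 0.05, with the number tested. The class I (17 of 20), class II (9 of 11) and IFNγ response (13 of 17) lists hold no lower gene, against 6.65% of all genes called in either direction.

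The next question is whether Treg co-culture gave the same cells a related change. Between Treg and control 13 of 9970 genes (0.13%) passed, 11 higher and 2 lower, with 760 genes at an unadjusted p under 0.05 and 16 called by DESeq2. These comparisons share the control sums with the one above. The higher genes were led by antigen presentation, with 5 of 20 class I genes, 1 class II gene and 1 IFNγ response gene. Irf1 was at 34.5, 62.5 and 49.9 CPM with Treg cells against 6.46, 5.70 and 5.66 CPM in control (log2 fold change 3.06, SE 0.39, adjusted p = 7.88e-05). Psmb8 was at 49.1, 96.7 and 84.5 CPM against 10.9, 11.7 and 24.1 CPM (2.45, SE 0.34, adjusted p = 0.000174). Areg was at 79.9, 123.1 and 30.4 CPM against 28.3, 40.2 and 10.6 CPM (1.54, SE 0.28, adjusted p = 0.00551). Irf1 and Psmb8 did not overlap control, whereas Areg did, with a rise inside each replicate. These 3 genes kept their call with any replicate left out, but Areg turned to -0.27 (adjusted p = 1.0) with equal numbers of members per group.

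Cd74 showed the widest spread of the responding genes, with 7.07, 140 and 45.6 CPM under Treg cells against 0.807, 5.38 and 4.96 CPM in control (4.16, SE 0.77, adjusted p = 0.00699). Replicate 1 responded least and replicate 2 most. After thinning, 2.33, 41.7 and 13.8% of Treg progenitors had a Cd74 UMI, which averages 19.3% (40.5% without thinning), against 3.00% in control. H2-Aa had 0, 23.01 and 4.86 CPM (26.5-fold higher, counting interval 9.07 to 129) and did not pass, with an adjusted p of 0.171. The remaining class I genes that passed were Psmb9 (1.33), Psmb10 (1.01), Psme1 (0.99) and Psme2 (0.81). Psme1 stood at 280.4, 321.5 and 316 CPM against 168, 161 and 137 CPM, with no overlap. Without replicate 3, Cd74, Psmb9, Psmb10, Psme1 and Psme2 lost their call, with changes of 4.42, 1.52, 0.95, 0.89 and 0.85 and adjusted p from 0.0613 to 0.394.

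Outside presentation, Ndrg1, which hypoxia and stress induce, and Lgals9, galectin-9, were higher by 0.74 and 0.49, and Gm12216, a predicted gene, also passed. S100a11, a calcium-binding protein, fell from 213, 101.3 and 147 to 112, 66.2 and 102 CPM (-0.69, SE 0.11, adjusted p = 0.0018). Tspan1, a tetraspanin, fell by 0.87 on the log2 scale (SE 0.16, adjusted p = 0.00699). These 4 named genes lost the call in at least 1 run that left out a replicate, S100a11 without replicate 1 (-0.55, adjusted p = 0.0696), and Ndrg1 (0.56), Lgals9 (0.50) and Tspan1 (-0.80) without replicate 3. In the stem, S phase and G2/M lists 0 genes passed between Treg and control, with medians of -0.46, -0.21 and -0.04.

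The promoters of the genes called between Treg and control, higher or lower, were searched for the IFNγ-activated site (GAS) and an interferon-responsive element. Of these 13 genes 11 have a promoter in the RefSeq table of GRCm38.p6. In the 250 bases before the start site the GAS motif TTCNNNGAA was present in 2, Irf1 and Psmb8, and the interferon-stimulated element, searched as 2 copies of GAAA set 2 bases apart on either strand, in 1, Lgals9, where it lies in reverse. Of all 32851 promoters 7.02% and 2.98% hold these letters on either strand. Irf1 has 2 promoters in the table, and the second does not hold the motif. A match describes the sequence and was not tied to binding. Each sequence below is given 5′ to 3′ on the strand of its gene with the match in capitals. The first Irf1 promoter (chr11:53769764-53770013, plus strand) has its match 90 bases before the start, the Psmb8 promoter (chr17:34197945-34198194, plus strand) 97 bases before and the Lgals9 promoter (chr11:78984925-78985174, minus strand) 55 bases before.
Irf1: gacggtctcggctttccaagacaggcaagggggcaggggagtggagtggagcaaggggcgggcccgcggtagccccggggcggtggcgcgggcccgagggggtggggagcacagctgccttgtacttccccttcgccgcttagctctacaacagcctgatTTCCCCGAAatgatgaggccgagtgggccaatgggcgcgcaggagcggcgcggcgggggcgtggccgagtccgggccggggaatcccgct
Psmb8: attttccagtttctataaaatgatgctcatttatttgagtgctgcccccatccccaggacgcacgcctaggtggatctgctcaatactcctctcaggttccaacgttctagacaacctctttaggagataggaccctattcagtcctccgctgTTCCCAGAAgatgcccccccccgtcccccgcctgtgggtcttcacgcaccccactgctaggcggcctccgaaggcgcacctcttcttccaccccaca
Lgals9: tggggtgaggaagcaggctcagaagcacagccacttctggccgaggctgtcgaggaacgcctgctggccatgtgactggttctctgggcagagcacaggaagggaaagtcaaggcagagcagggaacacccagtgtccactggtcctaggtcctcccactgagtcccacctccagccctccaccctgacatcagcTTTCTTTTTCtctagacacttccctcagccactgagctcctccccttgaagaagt

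With the IFNγ antibody in the co-culture, 0 of 9970 genes (0.0%) differed from control (301 at an unadjusted p under 0.05 and 0 by DESeq2). Irf1 was at 15.8, 4.09 and 5.09 CPM, Psmb8 at 14.3, 8.54 and 27.7 CPM and Cd74 at 0.716, 4.46 and 1.70 CPM, each overlapping control. Against Treg alone 14 genes (0.14%) passed, 3 higher and 11 lower. Among them Irf1 was lower by 2.5 (SE 0.35, adjusted p = 0.000322), Psmb8 by 2.30 (SE 0.33, adjusted p = 0.000322) and Psme1 by 0.99 (SE 0.13, adjusted p = 0.000177). Areg was lower by 1.34 and Lgals9 by 0.52, while Tspan1 was higher by 0.98 (SE 0.16, adjusted p = 0.00203) at 32.2, 41.2 and 53.2 CPM against 18.3, 19.6 and 24.9 CPM. All of these calls were lost without replicate 3, with Irf1 at -2.31 (adjusted p = 0.120), Psmb8 at -2.69 (adjusted p = 0.0632), Psme1 at -0.93 (adjusted p = 0.120) and 0 genes called.

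The co-culture with both antibodies was compared with control and with Treg alone, and was not tested against the IFNγ antibody group. Against control 1 gene passed (0.01%), with 385 at an unadjusted p under 0.05 and 1 by DESeq2. Its call was lost without replicate 1 or 3. Against Treg alone 19 genes (0.191%) passed, 8 higher and 11 lower. Irf1 was at 9.84, 7.16 and 6.13 CPM and lower by 2.63 (SE 0.37, adjusted p = 0.000121), and Psmb8 at 13.8, 9.40 and 13.4 CPM and lower by 2.63 (SE 0.35, adjusted p = 5.97e-05). Psme1 was lower by 1.06 (SE 0.13). These genes kept their call with any replicate left out, while Cd74 (-4.10, SE 0.78, adjusted p = 0.0111) was at -4.28 with an adjusted p of 0.269 without replicate 3.

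Some genes rose when IFNγ was blocked, alone or together with the IL-10 receptor. Reg1, a secreted regenerating protein, was at 15.4, 1.55 and 5.47 CPM with Treg cells, 36.9, 54.6 and 17.0 CPM with the IFNγ antibody and 138, 46.1 and 21.2 CPM with both. It was higher than in Treg alone by 3.28 with both antibodies (SE 0.42, adjusted p = 3.41e-05) and by 2.55 with the IFNγ antibody (adjusted p = 0.00401). S100a11 was higher by 0.87 with both antibodies (SE 0.11, adjusted p = 3.41e-05), at 200.0, 109 and 207 CPM, and by 0.56 with the IFNγ antibody. Both genes were among those that fell with the recombinant cytokines, where Reg1 went from 53.7, 10.5 and 17.0 to 3.86, 0.835 and 0 CPM (190 against 3 UMIs, 17.9-fold higher in control, counting interval 6.14 to 87.0, adjusted p = 0.0171), a call lost without replicate 1 (adjusted p = 0.0696) or 3 (adjusted p = 0.103). S100a11 went from 213, 101.3 and 147 to 69.5, 47.6 and 60.7 CPM (-1.31, SE 0.16, adjusted p = 9.27e-07). Mt1 was higher by 0.54 with both antibodies than with Treg cells alone (adjusted p = 0.00744). It was not among the 3 genes called higher with the IFNγ antibody alone.

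The IL-10 receptor antibody left the response in place. Against control 68 genes (0.682%) passed, 56 higher and 12 lower. Against Treg alone 0 passed (0.0%), with 437 at an unadjusted p under 0.05 and 0 by DESeq2. Irf1 was at 45.9, 95.6 and 69.1 CPM (3.50 above control, SE 0.37, adjusted p = 1.46e-06) and Psmb8 at 72.8, 168 and 116 CPM (3.01, SE 0.33, adjusted p = 1.46e-06), in each replicate above the value with Treg cells alone. Cd74 reached 26.2, 311 and 103 CPM (5.20, SE 0.70, adjusted p = 3.67e-05), and 11.8, 63.4 and 33.3% of thinned cells had a UMI of it (52.6% on average without thinning). Of the lists, 4 of 17 IFNγ response, 11 of 20 class I and 6 of 11 class II genes were higher than in control, H2-Aa among them at 45.9-fold (counting interval 15.7 to 223, adjusted p = 0.0101, lost without replicate 2 with an adjusted p of 0.0595 or 3 with 0.167). The count of 68 against 13 with Treg cells alone does not show that the antibody added to the response, since 0 genes differed between these groups.

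In this group 3 of 19 tested stem genes were lower than in control and 0 higher (median -0.57), where 0.682% of all genes were called in either direction. Of these stem genes, the runs that left out a replicate are given for Slc12a2 alone. Slc12a2 was at 142, 82.0 and 109 CPM against 195, 198 and 186 CPM (-0.83, SE 0.14, adjusted p = 0.00105) and kept its call with any replicate left out. Outside the stem list, Sox4 was at 85.5, 55.3 and 62.2 CPM against 124, 124 and 112 CPM (-0.85, SE 0.15, adjusted p = 0.00164), with no overlap. Sox4 lost the call without replicate 2 (-0.68, adjusted p = 0.0595) or 3 (-0.86, adjusted p = 0.0525).

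**Figure D5:**
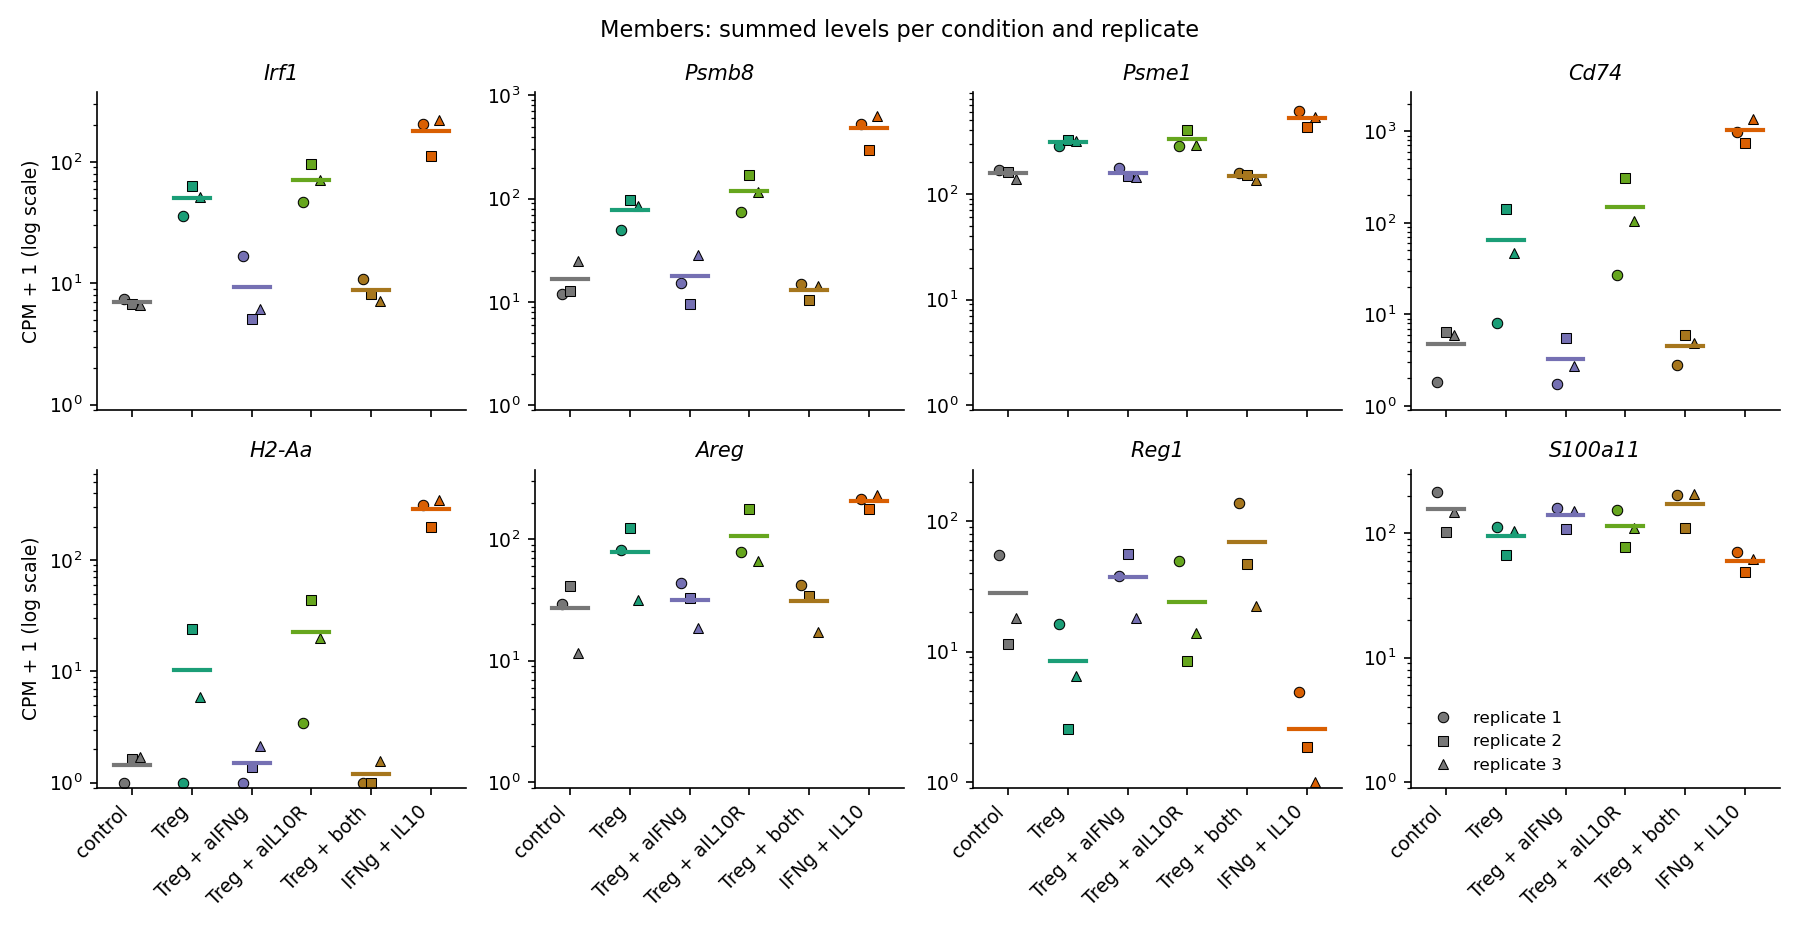
Levels of 8 genes in progenitors of the 6 groups (CPM + 1, log axis); points are the 3 replicates and bars their mean. Irf1 lies at 5.66 to 6.46 CPM in control, 34.5 to 62.5 CPM with Treg cells, 4.09 to 15.8 CPM with the IFNγ antibody, 45.9 to 95.6 CPM with the IL-10 receptor antibody and 111 to 221 CPM with IFNg + IL10.

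The recombinant cytokines and the T cells were then set against each other. The authors report low IFNγ in the supernatant of such co-cultures and based the recombinant IFNγ dose on it. The dose that reached the progenitors in these co-cultures is not part of the data used here. Between IFNg + IL10 and Treg 226 genes (2.27%) passed, 155 higher and 71 lower. Presentation and GTPase genes were higher with the recombinant cytokines, Igtp by 5.28 (SE 0.51), H2-Aa by 4.81 (SE 0.47) and Cd74 by 4.32 (SE 0.41), each with an adjusted p of 4.24e-08. Socs1 was higher by 4.399, at an adjusted p of 0.0756 without replicate 1 (3.43). Ifi27l2b was lower by 1.79 (SE 0.22, adjusted p = 3.16e-06), Cfhr2 by 2.28 and Slc6a19 by 2.19, and these 3 kept their call with any replicate left out. Areg, at 214, 176 and 228 CPM with the cytokines and 79.9, 123.1 and 30.4 CPM with Treg cells, was also higher with the cytokines (1.25, SE 0.26, adjusted p = 0.00451), with no overlap.

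Whether the progenitors responded to IFNg + IL10 like the crypt cells they arise from was tested as the difference of both responses within cultures. Of 11582 genes 62 (0.535%) differed between progenitors and cycling crypt cells, 32 with the higher change in progenitors and 30 with the lower. With DESeq2-style scaling (RLE) it was 45 and 15 of 60, and without the replicate block or among cells with at most 50000 UMIs 0 genes differed. In the IFNγ response, class I and class II lists 0 of 26, 0 of 21 and 0 of 11 genes differed. The gate on Fabp1 divides these classes and kept cells of intermediate Fabp1 among the progenitors of every group. Differences in maturation and stem cell genes are therefore descriptions, and the part of the gate was not tested. Of 36 maturation genes 8 had the higher change in progenitors, with a median difference of 0.55 where all genes had -0.04. Of these, Mttp, Sis and Vil1 rose in the progenitors themselves, Apoa4, Apob and Apoc3 did not pass there (1.29, 0.41 and 0.53), and Adh1 fell (-0.85, adjusted p = 0.000768). Apob, the structural protein of chylomicrons, was at 37.7 CPM in control progenitors and 54.0 CPM with cytokines, and at 27.6 and 8.42 CPM in crypt cells, a difference of 1.99 (SE 0.271, adjusted p = 7.3e-05). Of 40 Myc targets 5 had the lower change in progenitors (Eif5a, Hspd1, Ncl, Nop16 and Npm1, median -0.32).

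Of 21 stem cell genes 2 had the higher change in progenitors (Gkn3, near the detection floor, and Olfm4), where 0.535% of all genes differed. As stem cell genes run against Fabp1, whose gate divides these classes, this too is a description. Of 26 transcription factors of the lineages 0 differed. Sox4 was lower with cytokines in both classes and by more in progenitors, at 120 and 34.2 CPM without and with cytokines against 173 and 93.4 CPM in crypt cells (difference -1.08, SE 0.223, adjusted p = 0.00842), with -0.92 and an adjusted p of 0.266 without replicate 2. Ifi27l2b went from 239 to 39.2 CPM against 168 to 56.8 CPM (-1.01, SE 0.171, adjusted p = 0.00112), also without any one replicate. Olfm4 was at 1243 CPM in control and 542 CPM in cytokine crypt cells and at 49.0 and 136 CPM in progenitors, a difference of 2.46 (SE 0.589, adjusted p = 0.0383) that lost its call without replicate 1 (1.14, adjusted p = 0.284).

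Against absorptive cells of the same Fabp1 window that did not cycle, 109 of 10467 genes (1.04%) differed, 100 with the higher change in progenitors and 9 with the lower. Those with the higher change included 19 of 35 S phase genes. The gate on Mki67 and Top2a divides these classes and kept cycling cells among the progenitors of every group. Differences in cell cycle genes are therefore descriptions and carry no test, and the part of the gate was not tested. Mcm6, a subunit of the replicative helicase, was at 59.95 CPM in control progenitors and 57.2 CPM with cytokines. In the non-cycling cells it was at 48.9 and 5.26 CPM (difference 2.81). Of 19 stem genes 5 had the higher change in progenitors (Cdca7, Clca3b, Rnf43, Slc12a2 and Sox9). This too is a description, since the part of the gate in it was not tested. The change of Psmb9 was smaller in progenitors, from 41.9 to 415 CPM against 22.4 to 419.5 CPM (-0.93, SE 0.205, adjusted p = 0.0137). This call was lost in some runs, with a difference of -1.02 (adjusted p = 0.123) without replicate 2 and -0.75 (adjusted p = 0.102) without replicate 3.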

How the data were processed

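The authors aligned the reads with Cell Ranger 7.0.0 to GRCm38 and deposited gene and hashtag UMI counts per barcode as raw matrices without normalization. A sixth library, which they set aside, was not used here. Hashtags were called per library with Seurat 5.3.0 (CLR, HTODemux, quantile 0.99), only singlets were kept, and no transcriptome doublet caller was run. UMIs were summed per group and replicate and tested with edgeR 4.0.16 (TMM, filterByExpr, quasi-likelihood F test, replicate as block, Benjamini-Hochberg) in R 4.3.3, with DESeq2 1.42.0 as an alternative, after tests on simulated counts. SE is the absolute log2 fold change divided by the square root of F. Total UMIs per sum were 280291 to 3216366, and intervals cover counting error only. Genes were named if called, changed the same way in 3 of 3 replicates and with a mean of at least 20 CPM in a group, the 10 largest in each direction, with study genes and list members beside them. Results of some genes are not reported here. Members and gene lists were chosen with earlier results of these data known. Replicate numbers pair the groups, since the 6 groups of a replicate were pooled in the same libraries. Deviations from the group means correlated at 0.293 on average within a replicate (lowest 0.0178) and at -0.146 between replicates.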

Additional observations from a re-analysis of the deposited data

Results flagged for a closer look

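Genes whose response to IFNg + IL10 differed between the progenitors and a neighbouring class were taken up here by the test of that difference (log2, response in progenitors minus response in the other class, edgeR, adjusted p under 0.05).

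Against cycling crypt cells, the largest differences above 0 were Gkn3 with 5.83 (SE 1.34, adjusted p = 0.0256), Olfm4 with 2.46, Apoa4 with 2.22, Leap2 with 2.18 and Apob with 1.99. Gkn3 was near the detection floor in progenitors, and without replicate 1 its difference was -1.44. Among these, only Leap2 passed as higher in the progenitors themselves (1.58, adjusted p = 0.00693). Gkn3 and Olfm4 are stem cell genes, Apoa4 and Apob are maturation genes, and the gate on Fabp1 divides these classes. Their differences are therefore descriptions, and the part of the gate was not tested. The largest differences below 0 were Qtrt1 with -1.27, Galnt3 with -1.12, Sox4 with -1.08, Ifi27l2b with -1.01 and Arhgef38 with -0.83. The calls of Apob and Ifi27l2b held without any one replicate. Without replicate 1 the adjusted p was 0.284 for Olfm4 (1.14), 0.178 for Apoa4 (1.68) and 0.335 for Arhgef38 (-0.57), without replicate 2 it was 0.266 for Sox4, and without replicate 3 it was 0.354 for Leap2 (1.64). Qtrt1 (-1.75 to -1.07) and Galnt3 (-1.41 to -0.91) lost their call with any replicate left out.

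Against non-cycling absorptive cells, the largest differences above 0 were Slit2 with 3.15, Slfn9 with 3.08, Mcm6 with 2.81, Pola1 with 2.80 and Fbxo5 with 2.79. In the progenitors these 5 genes did not pass, with changes of -0.93 to 0.23, while in the non-cycling cells they stood at -4.21 to -2.66. Mcm6, Pola1 and Fbxo5 are cell cycle genes, and the gate on Mki67 and Top2a divides these classes. Their differences are therefore descriptions, and the part of the gate was not tested. Differences below 0 included Crot with -1.43, Usp8 with -1.14, Fam3c with -1.03 and Psmb9 with -0.93. Slfn9 kept its call with any replicate left out. Like Mcm6, it was level in progenitors, at 47.8 CPM in control and 45.9 CPM with cytokines. In non-cycling cells it was at 30.5 and 4.47 CPM, and the part of the gate in this was not tested. Crot (-0.82, adjusted p = 0.529) and Fam3c (-0.78, adjusted p = 0.508) lost it without replicate 2, as did Psmb9. Slit2 lost it without replicate 1 (2.38, adjusted p = 0.210) or 3 (3.79, adjusted p = 0.0732), and Usp8 with any replicate left out (-1.41 to -0.9995).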

How the results depend on the processing

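The number of called genes varied with the cells and the fit. The narrower window took Fabp1 from 10 to under 40 and Mki67 with Top2a from 5, and thinning applied the rule to cells thinned to 10000 UMIs. In the order cytokines against control, Treg against control, Treg + aIL10R against control, both antibodies against Treg, Treg + aIFNg against Treg and cytokines against Treg, the reported 663, 13, 68, 19, 14 and 226 genes became 158, 3, 13, 5, 4 and 73 with equal numbers of members per group (chosen after seeing the data), 94, 2, 23, 11, 5 and 40 with at most 50000 UMIs, and 212, 3, 9, 3, 2 and 77 without the replicate block. Leaving out a replicate gave 280 to 657, 4 to 37, 18 to 64, 8 to 19, 0 to 23 and 71 to 441. The narrower window gave 261, 20 and 85 for the cytokines and Treg + aIL10R against control and the cytokines against Treg. Without a filter on low counts 107, 177, 79, 74 and 355 genes were called for all but the first. Thinning gave 45 for Treg + aIL10R against control.

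Both antibodies against control gave 0 instead of 1 gene with equal members, the narrower window, no block or thinning, 2 with a stricter hashtag call (own hashtag at least 5 times and all others under 3 times their median in uncalled barcodes, chosen after seeing the data), 20 without the filter and 0 to 5 without a replicate. Treg + aIFNg against control gave 1 with at most 50000 UMIs and 3 without the filter instead of 0. Treg + aIL10R against Treg gave 2 with at most 50000 UMIs, the narrower window or thinning and 26 without the filter instead of 0. The 62 differences from crypt cells became 0 with at most 50000 UMIs, 129 without the filter, 0 without the block and 22 to 133 without a replicate. The 109 differences from non-cycling cells became 35, 188, 3 and 45 to 125. The 4 S and G2/M calls became 0 with equal members, at most 50000 UMIs or no block, 1 in the narrower window, 2 with the stricter hashtag call and 0 to 2 without a replicate.

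The share of progenitors differed from control by -2.30 points under IFNg + IL10 with at most 50000 UMIs, -2.06 in the narrower window, -6.09 with the stricter hashtag call, -6.90 where the called hashtag took at least 80% of hashtag UMIs, and -4.98 to -5.47 without a replicate. Under the replicate block (added after seeing the data) the mean differences of the shares are those reported, -5.25 and -0.924 points, with exact paired permutation p of 0.25 for each. For Treg the difference was -0.328 with at most 50000 UMIs, -1.50 with the stricter call, and -0.661 to -1.36 without a replicate. With the 80% rule the Treg share turned to 2.23 points above control (11.2 against 8.95%, SE 5.61), and those of Treg + aIFNg, Treg + aIL10R and both antibodies were at -4.14, -4.36 and -4.78 points, each with a replicate of under 20 cells. Gene tests were not run under this rule, since groups kept too few members.

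Directions turned for Ifngr1 (-0.0308 in the narrower window, -0.0574 thinned), Myc (0.28 with equal members, 0.30 with at most 50000 UMIs, 0.0711 with the stricter call, -0.35 to 0.37 without a replicate), Lgr5 (0.87 with DESeq2, 0.44 with equal members, 1.06 in the narrower window, 0.0716 without the block, -1.65 to 2.30 without a replicate), Casp8 (-0.33) and Creb3l3 (-0.56) with at most 50000 UMIs, Areg with equal members (-0.27 for Treg against control, 0.41 for both antibodies against Treg) and Gkn3 (-1.44 to 7.36 against crypt cells without a replicate). Of 134 genes named between cytokines and control 41 kept their call and 129 their direction in every run. The call was kept in every run by 1 of 12 genes named for Treg against control, 4 of 19 for Treg + aIL10R against control, 0 of 1 for both antibodies against control, 3 of 17 for both antibodies against Treg, 0 of 13 for Treg + aIFNg against Treg, 9 of 20 for the cytokines against Treg, 0 of 10 for the differences from crypt cells and 2 of 10 for those from non-cycling cells. For the other results the cause of a change was not tested. For genes with 0 to 3 counts in a group, depth allows only a bound or a wide interval.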
